A study of Bos taurus with 4 samples.

Results

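Bovine-numbered miRNA precursors, the hairpins named bta-mir-2284 to bta-mir-2904 with any suffix, were followed in small RNA libraries of primary mammary epithelial cells from Chinese Holstein dairy cows. They were chosen by number alone, from the precursor name that the deposited files give to each sequence tag. Of the 371 precursors listed in the libraries, 116 were of this kind, 84 of them in the HH library and 103 in the LL library. HH and LL are the codes in the library titles. The series had 1 small RNA and 1 RNA-seq library of each code, 4 in all, and describes cells of cows whose milk fat was 4.85% (called high) or 3.41% (called low). The titles do not say which code is which, and the phenotype label reads low for the small RNA pair and high for the RNA-seq pair, so each direction is given for HH against LL. In both codes the cells were obtained by culturing mammary tissue and digesting it with enzymes, and the cows were fed alike on corn and hay. The labels used here do not state how many animals stand behind a library, their age or their stage of lactation.

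A miRNA is cut from a hairpin by the nucleases Drosha and Dicer, which leave a short duplex. Either strand of that duplex can be loaded into an Argonaute protein, and the bases near its 5′ end, the seed, pair with messenger RNA targets. Numbers are given to miRNAs in the order in which they are registered, and this range holds mainly sequences found by deep sequencing of cattle RNA. Among them, miR-2284 and miR-2285 form a very large cattle family of similar copies. RefSeq (assembly ARS-UCD2.0) lists 422 miRNA genes in the number range, of which 43 are MIR2284 genes and 148 are MIR2285 genes. In these libraries 10 precursors of the miR-2284 name and 1 of the miR-2285 name, bta-mir-2285b, had reads. The miRNA database behind the deposited names is not given, and a precursor missing from it could not be listed. The 2 sets of counts therefore do not show how many of the RefSeq genes had no reads.

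The files listed 7087726 miRNA reads in HH and 9059038 in LL, and levels are given as reads per 1000000 of these (RPM). Each code has 1 library of a kind, so differences are between libraries and none could be set against replicate spread. Intervals are therefore 95% exact binomial intervals of counting error only. No molecular identifiers are described, so copies made in amplification are counted as separate reads, and the intervals may be too narrow. In the RNA-seq libraries (17369144 counts in HH and 16318951 in LL) the 6 luminal epithelial markers summed to 6545 counts per 1000000 (CPM) in HH and 4095 CPM in LL. The 3 milk protein genes summed to 68014 CPM in HH and 71136 CPM in LL. The 3 basal markers summed to 809 CPM in HH and 329 CPM in LL, and the 3 fibroblast markers to 282 CPM in HH and 206 CPM in LL. The 2 endothelial markers summed to 310 CPM in HH and 366 CPM in LL, and the 2 leukocyte markers to 72.0 CPM in HH and 45.2 CPM in LL. Single genes within a list differed. KRT5 had 747 CPM in HH and 295 CPM in LL, and TP63 29.8 CPM in HH and 23.7 CPM in LL. CSN2 had 13917 CPM in HH and 20315 CPM in LL, and CSN3 53846 CPM in HH and 50515 CPM in LL. COL3A1 was lower in HH (65.9 CPM) than in LL (77.3 CPM), while COL1A1 and PDGFRA were higher in HH. All 19 markers had counts in both, so epithelial markers were present beside those of other cell types, and the part of cell makeup in the results was not tested. In such bulk samples fewer cells of a type cannot be told apart from less RNA per cell.

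The sequences of the leading precursors are shown first, since the results turn on their ends and their seeds. Each is the tag with the most reads of its precursor, written 5′ to 3′ as DNA letters with the seed (bases 2 to 8) in capitals. These 5 precursors were the only ones of the 116 with at least 100 reads in the libraries together.
bta-mir-2284x: tGAAAAGTtcgttcgggttttt
bta-mir-2443: tGAGGGCAggaccgtatgaggtg
bta-mir-2387: tGGAAGGCctggctttgcagcg
bta-mir-2431: cACCCCCActtgcatgaccc
bta-mir-2422: cCTTGAGGggactgaggtgc
The 5 tags share no seed. The bta-mir-2284x tag had a GC content of 36.4%, and the other 4 tags 60.9 to 65%.

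Nearly all reads of the group came from bta-mir-2284x. It had 20972 reads (2959 RPM, interval 2919 to 2999) in HH and 31532 reads (3481 RPM, interval 3442 to 3519) in LL. It was the 21st most abundant of 307 listed precursors in HH and the 19th of 348 in LL. It held 96.2% of the group's reads in HH and 94.3% in LL. The next was bta-mir-2443, with 305 reads in HH and 501 in LL, followed by bta-mir-2387 with 67 in HH and 264 in LL. After them came bta-mir-2431 with 44 in HH and 181 in LL, and bta-mir-2422 with 43 in HH and 108 in LL. Below these the reads were few. The median listed member had 2 reads in HH and 3 in LL, against 165 reads in HH and 89 in LL for the median of the other listed precursors, and 52 of the 116 had 3 or fewer reads in all.

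**Figure D1:**
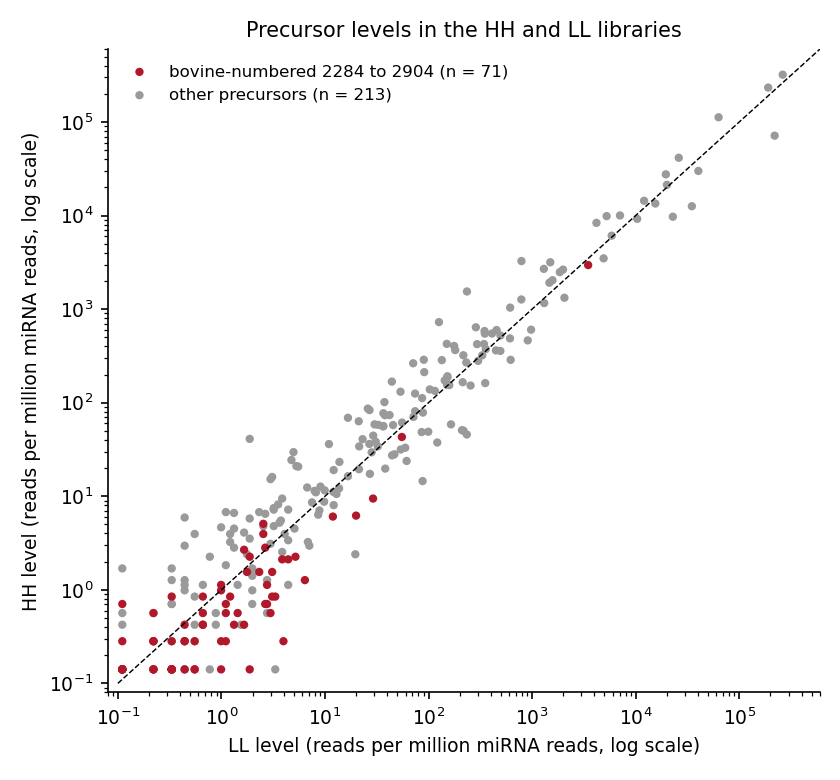
Level of each precursor with reads in both libraries, HH on the vertical axis and LL on the horizontal axis, in RPM on log scales, with the dashed line at equal levels. The 71 bovine-numbered precursors (red) lie at the low end apart from bta-mir-2284x at 2959 RPM in HH and 3481 RPM in LL, while the 213 others (grey) reach far higher.

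As a whole the group held 0.308% of the HH reads (0.304 to 0.312%) and 0.369% of the LL reads (0.365 to 0.373%). Without bta-mir-2284x the other 115 summed to 836 reads (118 RPM, interval 110 to 126) in HH and 1896 reads (209 RPM, interval 199.98 to 219) in LL. After TMM scaling, which sets library sizes on the assumption that most precursors do not differ, this sum had a log2 ratio of HH over LL of −0.88 (−1.001 to −0.76). The sum of the 255 other precursors was at −0.05. Of the 181 others with at least 20 summed reads, 116 lay above 0, with a median of 0.34. Of the 255 other precursors, 213 had reads in both libraries, 10 in HH alone and 32 in LL alone. Of the 116 members, 71 had reads in both libraries, 13 in HH alone and 32 in LL alone. Those in HH alone had at most 3 reads, as bta-mir-2347 and bta-mir-2457 did, while bta-mir-2303 and bta-mir-2308 had 2. Those in LL alone had at most 7, as bta-mir-2364 and bta-mir-2392 did, while bta-mir-2284k had 6 and bta-mir-2411 had 4. The limit set for a precursor with no read, 3 reads, was 0.423 RPM in HH and 0.331 RPM in LL. LL was the deeper library: if it is thinned to the HH total, the calculation gives 96.2 listed members in place of 103, against 84 in HH. For the other precursors it gives 237.8 listed in place of 245, against 223 in HH.

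Among precursors with at least 100 summed reads, bta-mir-2387 and bta-mir-2431 were lower in HH with the whole interval past 2-fold, and none of the 5 was higher. In the same comparison 11.2% of all 143 precursors were past 2-fold lower in HH and 16.8% past 2-fold higher. For bta-mir-2387 the levels were 9.45 RPM in HH and 29.1 RPM in LL (log2 ratio −1.68, interval −2.09 to −1.29), or 3.20-fold higher in LL. For bta-mir-2431 they were 6.21 RPM in HH and 19.98 RPM in LL (log2 ratio −1.74, interval −2.25 to −1.26), or 3.34-fold higher in LL. With tags of at least 21 nt alone, and scaling from those tags, that ratio was −0.91 and the call was lost, with 37 reads in HH and 60 in LL, under the minimum of 100. The 3 others did not have the whole interval past 2-fold: bta-mir-2422 was at −1.03 (−1.57 to −0.51), bta-mir-2443 at −0.42 (−0.63 to −0.21) and bta-mir-2284x at −0.29 (−0.31 to −0.26). All 5 log2 ratios lay below 0, and their median was −1.03, where the median of all 143 was 0.24.

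The same side of 0 was seen for most of the less abundant members. Of the 24 with at least 20 summed reads, 19 had a log2 ratio below 0 and 5 above it, with a median of −1.08 and a range from −3.87 to 0.95. Of the 181 other precursors within this limit 65 were below 0, with a median of 0.34. Upper-quartile scaling, which lowered all ratios alike, gave 21 of 24 members and 87 of 181 others below 0. With the whole interval past 2-fold, 4 of the 24 members were lower in HH and 0 were higher, where 9.27% of all 205 precursors were lower and 15.1% higher. Under upper-quartile scaling 6 of the 24 members and 21 of the 181 others were lower. Besides bta-mir-2387 and bta-mir-2431 the 4 were bta-mir-2382, with 9 reads in HH and 58 in LL, and bta-mir-2425, with 2 in HH and 36 in LL. Both rested on tags of 18 to 20 nt, which held 88.9% of the bta-mir-2382 reads in HH and 98.3% in LL, and 50% of the bta-mir-2425 reads in HH and 88.9% in LL. Longer bta-mir-2382 tags had 1 read in each library, and with tags of at least 21 nt and scaling from them its log2 ratio was −0.22. Some members had intervals above or across 0. bta-mir-2904-3 had 36 reads in HH and 23 in LL (log2 ratio 0.95, interval 0.15 to 1.77), and bta-mir-2477 had 20 reads in HH and 24 in LL (0.04, interval −0.90 to 0.95). Just under the limit of 100 summed reads lay bta-mir-2382, bta-mir-2320 (16 reads in HH and 47 in LL), bta-mir-2904-3 and bta-mir-2299 (15 in HH and 40 in LL).

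The remaining members with at least 20 summed reads, picked for this limit, were the following. The 5 with whole intervals below 0 and fewest HH reads were bta-mir-2459 (4 reads in HH and 27 in LL), bta-mir-2366 (5 in HH and 24 in LL), bta-mir-2475 (5 in HH and 25 in LL), bta-mir-2388 (6 in HH and 30 in LL) and bta-mir-2447 (6 in HH and 28 in LL). Their log2 ratios lay between −2.46 and −1.92, but none had its whole interval past 2-fold. bta-mir-2450a (8 in HH and 25 in LL) and bta-mir-2331 (15 in HH and 35 in LL) had intervals below 0 as well, at −1.34 and −0.92. For bta-mir-2396 (11 in HH and 28 in LL), bta-mir-2397 (11 in HH and 21 in LL) and bta-mir-2346 (11 in HH and 16 in LL) the interval crossed 0, as it did for bta-mir-2349 (16 in HH and 17 in LL) and bta-mir-2887-2 (19 in HH and 15 in LL). At these counts the depth does not show a difference for the last 5.

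**Figure D2:**
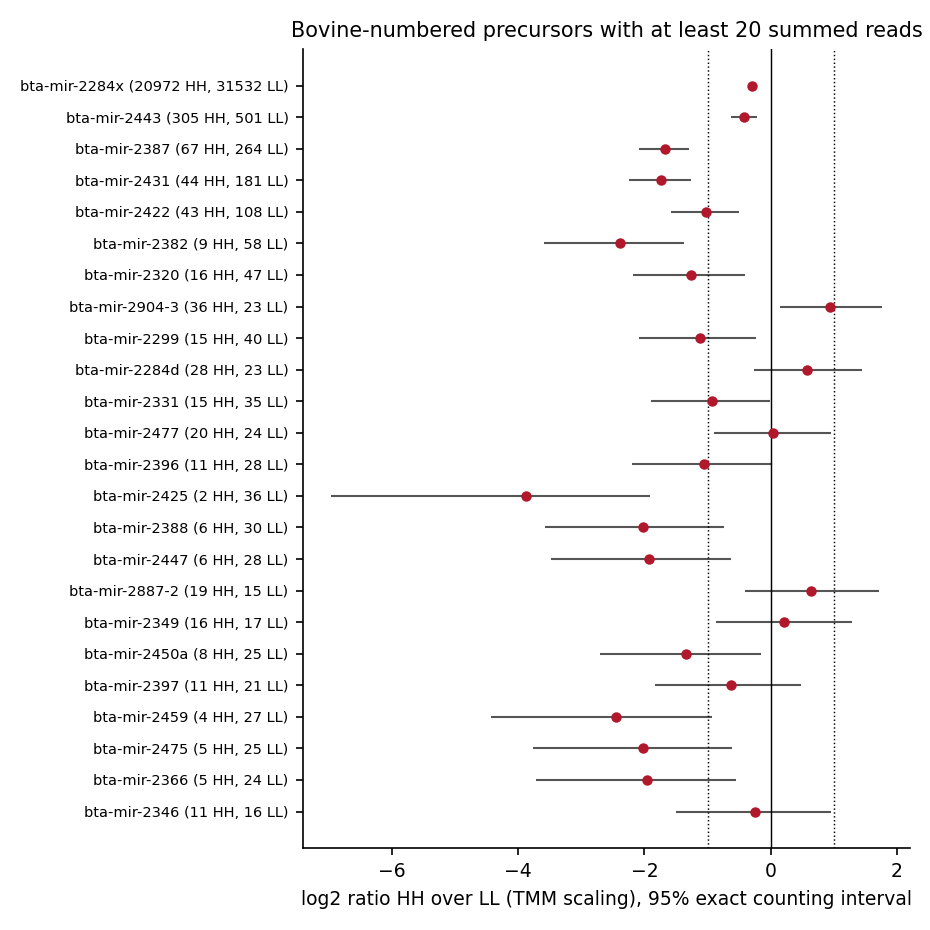
Log2 ratio of HH over LL after TMM scaling for the 24 bovine-numbered precursors with at least 20 summed reads, ordered by reads, with bars for the 95% exact counting interval and dotted lines at 2-fold. Of the points, 19 lie left of 0, and bta-mir-2904-3 at 0.95 lies farthest to the right.

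The GC content of the leading tag differed between the members and the other precursors, and it moved with the ratio. Its median was 57.1% over the 24 members with at least 20 summed reads (range 31.8 to 89.5%) and 47.6% over the 181 others. With precursors split into 3 GC ranges of about equal size over the others, 18 of the 24 members fell in the highest, from 52.2% up. There the median log2 ratio was −1.23 for the 18 members and −0.24 for the 50 others. In the middle range it was −0.75 for 4 members and 0.30 for 68 others. In the lowest range it was 0.15 for 2 members, bta-mir-2284x and bta-mir-2284d, and 0.69 for 63 others. The members' medians were below those of the others in all 3 ranges, while the ranges overlapped. The part of GC content in the members' ratios was not tested.

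**Figure D3:**
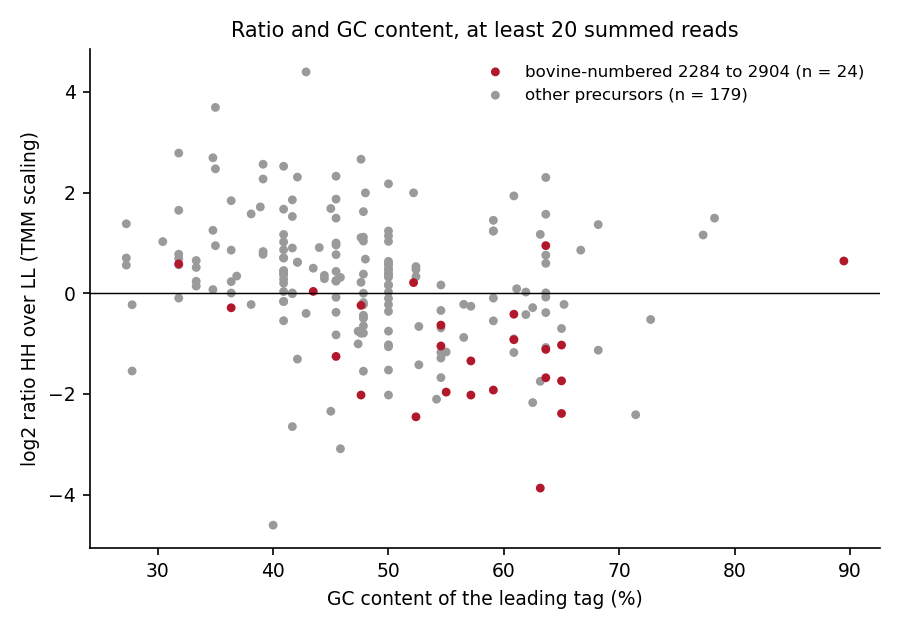
Log2 ratio of HH over LL after TMM scaling against the GC content of the leading tag, for precursors with at least 20 summed reads and reads in both libraries. The 24 bovine-numbered precursors (red) lie mostly at higher GC content, with 18 from 52.2% up, and 19 of them below 0, among 179 others (grey).

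Within bta-mir-2284x the libraries differed in tag length rather than evenly. Tags of 18 to 20 nt numbered 1285 in HH and 7572 in LL, which was 6.13% (5.81 to 6.46%) of its reads in HH and 24.01% (23.5 to 24.5%) in LL. Their log2 ratio was −2.26 (−2.35 to −2.17). Tags of 21 nt or longer numbered 19687 in HH and 23960 in LL, with a log2 ratio of 0.02 (−0.01 to 0.04), which was −0.17 under DESeq2 size factors and −0.29 under upper-quartile scaling. When the TMM factors too were taken from tags of at least 21 nt, it was −0.50, so its direction rests on the scaling. The short tag tgaaaagttcgttcgggtt of 19 nt, which lacks the last 3 bases of the leading tag, had 266 reads in HH and 2856 in LL. The tag 1 base longer than the leading one, of 23 nt, had more reads in HH, 846, than in LL, 545.

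Short tags were more frequent in LL in other precursors too. Among the other precursors they made up 6.85% of the reads in HH and 18.98% in LL, and among the other 115 members 11.5% in HH and 28.5% in LL. These are pooled reads. Per precursor with at least 20 summed reads, the median share was 9.30% in HH and 25% in LL over 23 members without bta-mir-2284x. Over the 91 others with no more reads than bta-mir-2443 it was 7.70% in HH and 22.9% in LL. In bta-mir-2431 the tags of 18 to 20 nt had 7 reads in HH and 121 in LL, while longer tags had 37 in HH and 60 in LL. In bta-mir-2422 they had 4 reads in HH and 58 in LL, while longer tags had 39 in HH and 50 in LL. In bta-mir-2387 most reads were long, with 66 in HH and 251 in LL, so its difference lay in the longer tags. Summed over the 115 members the tags of 21 nt or longer were at a log2 ratio of −0.57 (−0.71 to −0.44) and the short ones at −2.19 (−2.52 to −1.88). For the other precursors the same sums were at 0.15 and −1.52. The members' sums were thus below those of the other precursors in both length classes. In bta-mir-2431 and bta-mir-2422 the leading tag is itself of 20 nt, with 1 read in HH for each, against 39 reads in LL for bta-mir-2431 and 40 for bta-mir-2422. The cause of the difference in tag length was not tested.

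**Figure D4:**
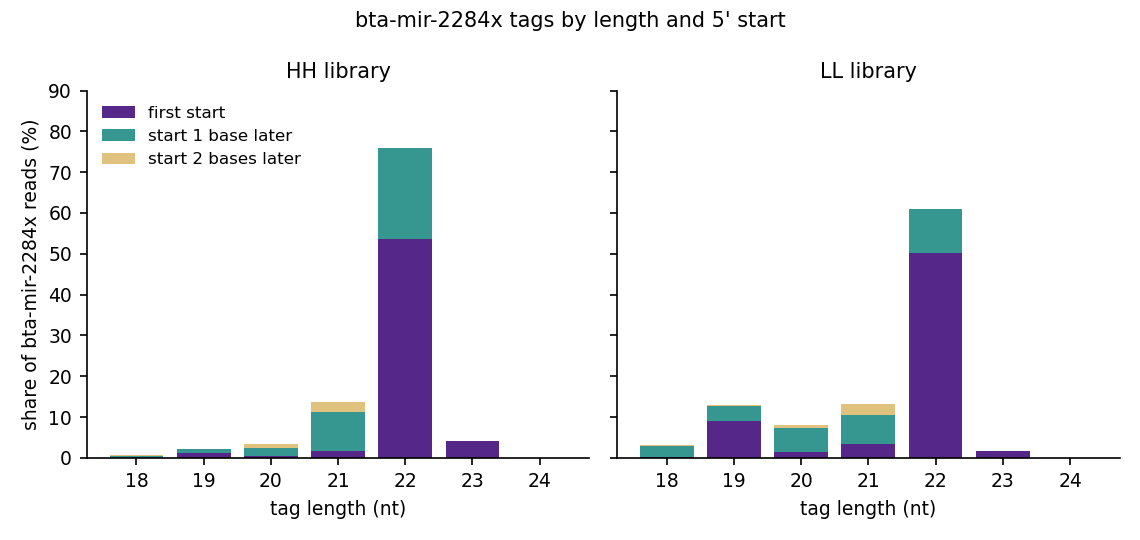
Share of bta-mir-2284x reads by tag length in nt, HH left and LL right, stacked by the 5′ start relative to the leading tag (starts before it or over 2 bases later, under 0.1% of the reads, are left out). Tags of 18 to 20 nt make up 6.13% of the reads in HH and 24.01% in LL, and the 22 nt tags are the tallest bar in both.

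The bta-mir-2284x strand was also read from several 5′ starts, each with another seed. They are shown because the choice of start decides which seed a miRNA presents.
first start: tGAAAAGTtcgttcgggttttt
1 base later: gAAAAGTTcgttcgggtttttc
2 bases later: aAAAGTTCgttcgggtttttc
The first start held 12758 reads in HH and 20828 in LL, a share of 60.8% (60.2 to 61.5%) in HH and 66.1% (65.5 to 66.6%) in LL. The start 1 base later held 7461 reads in HH and 9566 in LL, a share of 35.6% (34.9 to 36.2%) in HH and 30.3% (29.8 to 30.8%) in LL. The start 2 bases later had 3.54% in HH and 3.57% in LL. Tags of 18 to 20 nt made up 2.74% of the first start's reads in HH and 16.3% in LL, and 9.92% in HH and 40.6% in LL of those 1 base later. For the start 2 bases later they were 25.8% in HH and 24.3% in LL. The share of short tags thus differed at the first pair of starts, and no difference in it was detectable at the last. Within that last share the 18 nt tag had 9 reads in HH and 62 in LL (log2 ratio −2.48, interval −3.68 to −1.47). The 20 nt tag had 168 reads in HH and 180 in LL (0.20, interval −0.11 to 0.51). The first start thus took a smaller share in HH than in LL, by more than the counting error. Among lead-arm reads 64.0% began at the start of the leading tag, where the median was 93.6% over the 24 members with at least 20 summed reads and 99.4% over the 181 other precursors.

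The other miR-2284 precursors and bta-mir-2285b had few reads. Their leading tags are shown for comparison with bta-mir-2284x, again with the seed in capitals.
bta-mir-2284d: aAAAAGTTcgttagggtttttc
bta-mir-2284p: tGAAAGTTtgttcgggatttt
bta-mir-2284w: aAGAGTTTgttcgggtttct
bta-mir-2284k: gAAAAGTTcggtcgggttttt
bta-mir-2284c: aAAAGTTCgttttggtttttc
bta-mir-2284m: gAAAAGTTtgttcgggttt
bta-mir-2284j: gAAAAGTTcgttcaggttt
bta-mir-2284o: aAAGTTCGttcggggttttc
bta-mir-2284v: aAAAAGTTcgtttggggtttc
bta-mir-2285b: aAAATCTGagtgaactttttgg
Set against the bta-mir-2284x strand without gaps, 4 of the 9 other miR-2284 tags differed at 1 base and 2 at 2 bases. None differed at more than 4. The bta-mir-2285b leading tag differed at 9 of 17 compared bases. That leading tag pairs at 18 bases with another bta-mir-2285b tag, which has the seed AAAAGTT. The leading tag thus appears to be the opposite strand of its hairpin. Its count of differences compares unlike strands and does not measure how like bta-mir-2284x the precursor is. The seed AAAAGTT, which bta-mir-2284x presents from its later start, was also that of 5 of the 9 other miR-2284 tags, and bta-mir-2284c had the seed of the start after it. It was the only seed that more than 1 of the 116 leading tags shared. A further seed, CTGGGAA of bta-mir-2447, was also that of the leading tag of bta-mir-204, a precursor outside the number range. Together these 9 had 39 reads in HH and 57 in LL. The most abundant, bta-mir-2284d, had 28 reads in HH and 23 in LL (log2 ratio 0.58, interval −0.26 to 1.45), which is 1.34 reads per 1000 of bta-mir-2284x in HH and 0.729 in LL. The 4 tags with 1 difference, of bta-mir-2284k, bta-mir-2284m, bta-mir-2284j and bta-mir-2284o, had 1 to 6 reads in all for their precursors. The deposited files place each tag in 1 precursor only, so for these near copies the assignment of reads is uncertain. Both bta-mir-2284w and bta-mir-2285b also had tags unlike the leading one, shown because 1 of them has the family seed.
bta-mir-2284w, other tag: aAAAACCTcaatgaactctttgg
bta-mir-2285b, other tag: gAAAAGTTcattccagtttttct
The bta-mir-2285b tag of this kind has the seed AAAAGTT too, from 1 read in LL, and the bta-mir-2284w tags of this kind had 2 reads, both in LL.

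Some members also had tags of another sequence than the leading one. Of the 24 members with at least 20 summed reads, 10 had tags that share fewer than 12 bases in a row with the leading tag, against 142 of 181 other precursors. This is no count of hairpin sides: in bta-mir-2904-3 and bta-mir-2887-2 the other tag overlaps the leading one by fewer than 12 bases. Whether such tags are seen also depends on depth. Of the 24 members 5 had at least 100 summed reads, against 138 of the 181 others. Examples of such tags are shown with the seed of each in capitals.
bta-mir-2320, leading tag: tCGATGATggtccctgtgtttt
bta-mir-2320, other tag: tGGCACAGggtccagctg
bta-mir-2355, leading tag: aTCCCCAGatacaatggacaat
bta-mir-2355, other tag: aTTGTCCTtgctgtttggaga
bta-mir-2387, other tag: cCTGCAGAcccggccttggcaa
In bta-mir-2320 the tags like the leading one had 10 reads in HH and 23 in LL, and the other tags 6 in HH and 24 in LL. In bta-mir-2355 the tags like the leading one had 3 reads in HH and 6 in LL, and the other tags 5 in HH and 3 in LL. In bta-mir-2387 the tags like the leading one had 65 reads in HH and 263 in LL, and the other tags 2 in HH and 1 in LL.

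In bta-mir-2904-3 the reads were spread over many tags with no dominant end. Its 36 reads in HH and 23 in LL fell on 46 distinct tags, and the leading one held 5.08% of the reads. Of the reads that share 12 bases in a row with the leading tag, 24% began at the start of the leading tag. For bta-mir-2477, in contrast, 90.9% of the 44 reads had the same sequence. The leading tag of bta-mir-2904-3 is shown beside a further tag, with bases 2 to 8 in capitals.
bta-mir-2904-3, leading tag: aGCCTCGGttggcctcggatag
bta-mir-2904-3, other tag: cCTCGGATagccggtccc
Over the 24 members with at least 20 summed reads the median share of the leading tag was 48.0%, and 51.4% over the 181 others. The leading tag began with T in 10 of the 24 members (41.7%) and in 89 of the 181 others (49.2%).

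Some leading tags held the letters TGATGA, the core of the C box by which box C/D small nucleolar RNAs are recognised. The motif was chosen after the tags had been seen. It was searched on both strands and found as read in 6 of the 116 members (5.17%, interval 1.92 to 10.9%) and in 3 of the 255 other precursors (1.18%, interval 0.243 to 3.40%), and its reverse complement in none of either. The 6 tags are shown with the motif in capitals.
bta-mir-2477: gtggaaTGATGAtaagtctgacg
bta-mir-2314: tgcccaTGATGActgctg
bta-mir-2318: cgtgtaTGATGAattatctgacc
bta-mir-2335: agataaTGATGActaact
bta-mir-2356: ctcttgTGATGAgggagtctgaggag
bta-mir-2383: gctgagTGATGActgctg
These 6 precursors had 70 reads in all, of which bta-mir-2477 had 44 and bta-mir-2314 had 17. None of the 110 members matched to the RefSeq table overlapped a small nucleolar, small nuclear, ribosomal or transfer RNA gene of that table, and none of the 254 matched other precursors did. This compared gene positions and left out the unmatched members. Whether the tags match such an RNA by sequence was not tested.

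Most members lie inside protein-coding genes. Of the 110 matched to a RefSeq miRNA gene, 90 (81.8%) lay within the bounds of a protein-coding gene, against 145 of 254 matched other precursors (57.1%), without regard to strand. The RNA-seq table tested 78 of these host genes (at least 100 summed counts), and 0 had the whole interval past 2-fold in either direction, where of all 12804 genes tested 1.87% were higher in HH, 1% lower, and 2.87% either. Their median log2 ratio was 0.04, and −0.01 over all genes tested. A further 9 hosts were under that minimum. Among these DNER, which holds bta-mir-2284m and is named after its values were seen, had 0 counts in HH and 97 in LL. bta-mir-2284x lies in TIAM1, which encodes an activator of the small GTPase Rac. TIAM1 had 129 counts in HH and 112 in LL (log2 ratio 0.07, interval −0.31 to 0.44).

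The hosts of the other abundant members were read next to them. GTF2IRD1, a transcription factor gene that holds bta-mir-2387, had 219 counts in HH and 160 in LL (log2 ratio 0.32, interval 0.01 to 0.62), while the precursor was at −1.68. FLNC, the filamin C gene that holds bta-mir-2422, had 384 counts in HH and 170 in LL (1.04, interval 0.77 to 1.31), while the precursor was at −1.03. The uncharacterised LOC101903200, which holds bta-mir-2443, had 99 counts in HH and 133 in LL (−0.56, interval −0.95 to −0.18), with the precursor at −0.42. Of the 4 protein-coding hosts of members with at least 100 reads, 3 had a ratio above 0 (TIAM1 with an interval across it), while the 4 precursors were below 0. Host and precursor were read from separate libraries, and bta-mir-2431 lies in no protein-coding gene.

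No gene of the list that makes and loads miRNAs had its whole interval past 2-fold between the RNA-seq libraries. Of 12 such genes 11 had at least 100 summed counts, where 2.87% of all genes tested were called either way. The median log2 ratio of the 12 was −0.21. DROSHA, the nuclear nuclease, had 476 counts in HH and 378 in LL (0.20), and DICER1, the nuclease of the cytoplasm, 1408 in HH and 1618 in LL (−0.34). XPO5, which exports hairpins from the nucleus, was at −0.35, and AGO2, the Argonaute that cuts targets, at −0.11. DBR1, which opens intron lariats and so releases hairpins that are whole introns, had 276 counts in HH and 345 in LL (−0.46).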

How the data were processed

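Per the labels' protocols, RNA came from TRIzol extraction with a DNase I step, with RNA over 18 nt kept, and an Ion Total RNA-Seq kit made the libraries. The titles of the small RNA libraries name Solexa sequencing, and those of the RNA-seq libraries name no platform. Trimming, aligner, build and miRNA database were not given in the sources used here. As deposited, the authors' files hold whole-number read counts: per distinct tag (18 to 29 nt, class miRNA only, with a precursor name) for small RNA, and per gene for RNA-seq. The small RNA totals are therefore miRNA reads, not library depths.

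Tags were summed per precursor. Log2 ratios of HH over LL used TMM factors (edgeR 4.0.16, R 4.3.3) from all 371 precursors, with the exact (Clopper-Pearson) 95% interval of the HH share. A precursor was called when the whole interval lay past 2-fold, with at least 100 summed reads, and no p-value was computed. The leading arm was the tags sharing 12 bases in a row with the leading tag. Hosts came from the RefSeq table of ARS-UCD2.0, used for names and neighbours only. The interval was tested on simulated counts that held counting error alone, so that test could not speak to replicate spread, amplification copies or scaling. Scaling by totals, upper quartile and DESeq2 1.42.0 size factors were alternatives.

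The members, lists and tests were chosen with earlier results of these data known. Named members were those with at least 100 summed reads, the 8 most abundant per library, the 4 with most reads in 1 library only, those near the limit, and those sharing a seed. Others named were picked after their values were seen. One further precursor of the number range is not reported here and is counted with the others.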

Additional observations from a re-analysis of the deposited data

Results flagged for a closer look

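The RNA-seq table has a row of its own for 113 of the 116 precursors, and these rows were used in no comparison. Of them 63 had no count in either library, and 10 had more than 3 counts in both, the limit that a count of 0 allows. Those with at least 20 summed counts are given here, since they are signal outside the small RNA measurement. MIR2469, which lies in the TOPORS gene, had 90 counts in HH and 111 in LL, against 1 read in HH and 9 in LL in the small RNA libraries. MIR2303 had 10 counts in HH and 29 in LL, and MIR2383 had 9 in HH and 19 in LL. MIR2447 had 14 counts in HH and 15 in LL, MIR2400 had 14 in HH and 12 in LL, and MIR2299 had 13 in HH and 11 in LL. MIR2443 had 9 counts in HH and 13 in LL, and MIR2477 had 11 in HH and 9 in LL. Counts of host transcripts over these rows cannot be told apart from counts of the hairpins.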

How the results depend on the processing

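No paired analysis was possible because each code has 1 library of a kind. The count of members lower in HH was 2, also under total, DESeq2 and upper-quartile scaling, with the leading arm only, and with the miR-2284 and miR-2285 precursors summed (an alternative added after seeing the data). Each of these counts was of 5 members tested. Of all precursors 11.2% were lower in the main run, under total scaling and with those precursors summed. The share was 12.6% under DESeq2 size factors, 14% under the upper quartile and 14.4% with the leading arm only. The count of members was 1 of 3 with tags of at least 21 nt and scaling from them (14.3% of all), and 3 of 11 with a minimum of 50 summed reads (10.1%). It was 4 of 24 with a minimum of 20 (9.27%), and 5 of 71 with no minimum beyond 1 read in each library (6.69%). It was 3 of 5 for a point ratio past 2-fold (14% of all) and 0 of 5 for a whole interval past 4-fold (3.5%). None of these alternatives gave a member higher in HH. The median log2 ratio of members stayed below 0 in every alternative run, from −1.33 to −0.70. That of all precursors was 0.06 under DESeq2 size factors and −0.06 under the upper quartile, in place of 0.24. With tags of at least 21 nt and scaling from them it was −0.05, beside −0.89 for the 3 members tested. With the main scaling kept, such tags were at 0.02 for bta-mir-2284x, −0.38 for bta-mir-2443 and −1.63 for bta-mir-2387. They were at −0.40 for bta-mir-2431 and −0.06 for bta-mir-2422. Listed members fell to 41 in HH and 62 in LL at 3 or more reads, and to 16 in HH and 32 in LL at 10 or more. Without the let-7 and bta-mir-222 reads the group's share was 1.84% in HH and 1.92% in LL, and with tags of at least 21 nt it was 0.345% in LL. Of 55 ratios of 11 named members under alternatives, 44 stayed inside their counting interval, 10 moved out of it and 1 call was lost, that of bta-mir-2431 (−0.91, tags of at least 21 nt). No 2 precursors shared a leading tag, so summing by leading tag gave no value. Most members had too few reads for a 2-fold difference to be detectable at this depth.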
